A study of Homo sapiens with 18 samples.

Results

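The data described here are 9 RNA-seq libraries of a series of 18, chosen by their labelled dose: the 6 libraries of HMC3 cells given 1 or 2.5 µg/ml of oxLDL (oxidized low-density lipoprotein), 3 at each dose, and the 3 libraries at 0 µg/ml. All 9 are labelled wild-type HMC3, cultured in MEM with fetal bovine serum and antibiotics, with the same 24 h treatment time and the same batch value. HMC3 is an established human cell line used as a model of microglia, the resident macrophages of the brain and retina. The other 9 libraries received 10, 50 or 100 µg/ml for the same time, and the series title places the work in a study of CD36, lipid accumulation and the NLRP3 and IL-1β pathway in retinal degeneration. Whether replicate libraries are separate cultures is not stated in the labels, so the p-values measure only how far these libraries spread, and that spread may be technical.

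OxLDL is a lipoprotein particle whose lipids and protein have been oxidized. Macrophages take it up through scavenger receptors such as CD36 and OLR1 and deliver it to lysosomes, where its cholesterol and fatty acids are released. Cells that load lipid in this way can store it in droplets coated by PLIN2, switch on cholesterol export through LXR, switch off sterol synthesis through SREBP2, answer the oxidized lipids through NRF2, and prime the NLRP3 inflammasome that matures IL-1β. The question of the low-dose comparison is whether any of these programmes, or any other transcript, differed between cells given 1 or 2.5 µg/ml and cells given none.

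The values are FPKM, that is, read numbers scaled by transcript length and library total, for 13992 gene symbols. Read numbers recovered from the FPKM steps gave totals of about 16203260 to 27908485 per library. One library stood apart from the other 8, replicate 3 at 2.5 µg/ml. Its sum of FPKM was 386396, against 400185 to 413363 in the others. Cytosolic ribosomal protein genes took 14.32% of its FPKM, against 15.01% to 15.75%, and mitochondrially encoded genes 7.57%, against 7.75% to 8.43%. The root-mean-square log2 difference between this library and each of the others was 0.14 to 0.198, and between pairs of the other 8 it was 0.118 to 0.154. Values without it are given beside several of the list medians and genes that it moved. Of 33 microglia and macrophage markers, 6 were in the table, among them CD14, CD68 and CD74, and the other 27, among them AIF1, CSF1R, CX3CR1, P2RY12, TMEM119 and PTPRC, were not analysed here.

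No transcript was called different between the low doses and 0. Of 11948 genes tested by limma on log2(FPKM + 0.5), 0 (0%) had an adjusted p under 0.05, and the lowest adjusted p was 0.9998. At an unadjusted p under 0.05 there were 341 genes (2.85%), 154 higher (1.29%) and 187 lower (1.57%) at the low doses. A second test, limma-voom on the recovered reads, also called 0 genes and gave 304 at an unadjusted p under 0.05. Without replicate 3 at 2.5 µg/ml limma still called 0 genes, with a lowest adjusted p of 0.0683 and 528 genes (4.44%) at an unadjusted p under 0.05. All 6 low-dose libraries lay above all 3 libraries at 0 for 104 genes (0.87%) and below them for 92 (0.77%). The libraries of 1 dose were as far from each other as from those of another dose: the median root-mean-square difference was 0.138 over the 9 pairs within a dose, and 0.135 over the 18 pairs of a low-dose library with a library at 0.

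The differences were small and closely bounded. The median absolute log2 fold change (low doses minus 0) was 0.031, the 99th percentile was 0.28, and 0 genes reached an absolute value of 1. The 95% interval of a gene's log2 fold change, taken for each gene alone, lay inside ±0.5 for 11665 genes (97.6%) and inside ±0.25 for 9829 (82.3%). The interval reached a median of 0.20 to either side of the estimate for genes with a mean FPKM under 1, 0.15 from 1 to 5, 0.11 from 5 to 20, 0.080 from 20 to 100, and 0.083 from 100 upward. On the log2(FPKM + 0.5) scale, differences in genes of low FPKM come out smaller than they are.

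An absolute log2 fold change of at least 0.5 was seen for 16 genes. These were 9 short noncoding RNAs, 5 long noncoding RNAs and 2 protein-coding genes (C1QTNF12 and IER3_4, the latter an extra locus of IER3), with 3 to 55 reads in any library. Short noncoding RNAs had a median standard error (SE) of 0.18, and 14.3% of the 161 tested had an unadjusted p under 0.05. Protein-coding genes had a median SE of 0.053, and 2.21% of 10564 did. The libraries were made from poly-A-selected RNA, so most small nucleolar, spliceosomal and transfer RNAs are captured in them only in part.

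**Figure D1:**
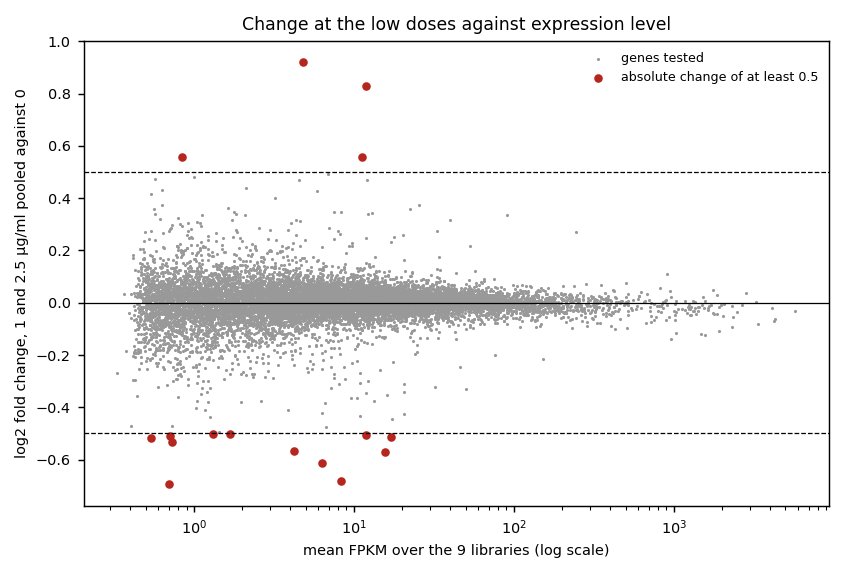
Each point is 1 of the 11948 tested genes, with its mean FPKM over the 9 libraries on a log axis and its log2 fold change at 1 and 2.5 µg/ml pooled against 0 on the vertical axis. The 16 genes at or beyond ±0.5 (dashed lines, red points) all lie below a mean FPKM of 20, and the cloud narrows with expression level.

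NRF2 is the transcription factor of the antioxidant response, and its targets make glutathione, reduce quinones and break down heme. Of 31 tested NRF2 list members, 0 were called, 1 had an unadjusted p under 0.05 and 20 had a log2 fold change above 0, where 52.1% of all tested genes did. Their median was 0.014, against 0.0022 for all genes. HMOX1, which degrades heme (hg38 chromosome 22, 35381096 to 35394207), had FPKM of 9.20, 9.53 and 8.81 at 0 µg/ml, 8.74, 8.03 and 9.04 with 1 µg/ml, and 10.4, 9.41 and 9.11 at 2.5 µg/ml. The groups overlapped, and the pooled log2 fold change was -0.012 (95% interval -0.15 to 0.13, unadjusted p = 0.85). SLC7A11, the cystine importer (chromosome 4, 138164097 to 138242349), had 1.35, 1.42 and 1.31 at 0, then 1.40, 1.41 and 1.44 with 1 µg/ml and 1.45, 1.54 and 1.70 at 2.5 µg/ml. The pooled groups overlapped through the libraries at 1 µg/ml, and every library at 2.5 µg/ml lay above those at 0. At 2.5 µg/ml alone the log2 fold change was 0.15 (-0.002 to 0.30, unadjusted p = 0.0523, adjusted p = 0.9966 by limma). The highest value was in the library that stood apart. The pooled log2 fold change was 0.10 (-0.039 to 0.23) with that library and 0.068 without it. NQO1, a quinone reductase (chromosome 16, 69709401 to 69726560), ran from 59.8 to 63.6 at 0 and from 61.4 to 67.3 (median 64.3) at the low doses, a log2 fold change of 0.048 (-0.027 to 0.12). NQO1 overlaps NQO1-AS1 on the opposite strand, and its reads may include those of that gene.

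GCLM, the modifier subunit of glutamate-cysteine ligase in glutathione synthesis, ran from 5.04 to 5.88 FPKM at 0 and from 5.27 to 5.86 (median 5.36) at the low doses. TXNRD1, the cytosolic thioredoxin reductase, ran from 113.5 to 126.6 and from 115.3 to 131.7 (median 123.3). Both genes overlapped between the groups, with log2 fold changes of 0.014 (-0.10 to 0.13) and 0.045 (-0.050 to 0.14). OSGIN1 (chromosome 16, 83953240 to 83966332), a growth inhibitor induced by oxidative stress whose span meets that of NECAB2, did not overlap between the groups. It had 3.44, 3.49 and 3.71 FPKM at 0, 4.05, 3.84 and 4.21 with 1 µg/ml, and 3.78, 4.37 and 3.95 at 2.5 µg/ml. The OSGIN1 log2 fold change was 0.16 (SE 0.053, interval 0.048 to 0.28, unadjusted p = 0.00976, adjusted p = 0.9998 by limma). TRIM16 was the other list member whose 6 low-dose libraries lay above all 3 at 0, by 0.058, and OSGIN1 and TRIM16 are 2 of the 104 such genes (0.87% of those tested). FTH1, the ferritin heavy chain, had the largest log2 fold change of the list, 0.34 with an SE of 0.26. FTH1 has many processed pseudogenes, so reads can be split between copies and its values are uncertain.

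**Figure D2:**
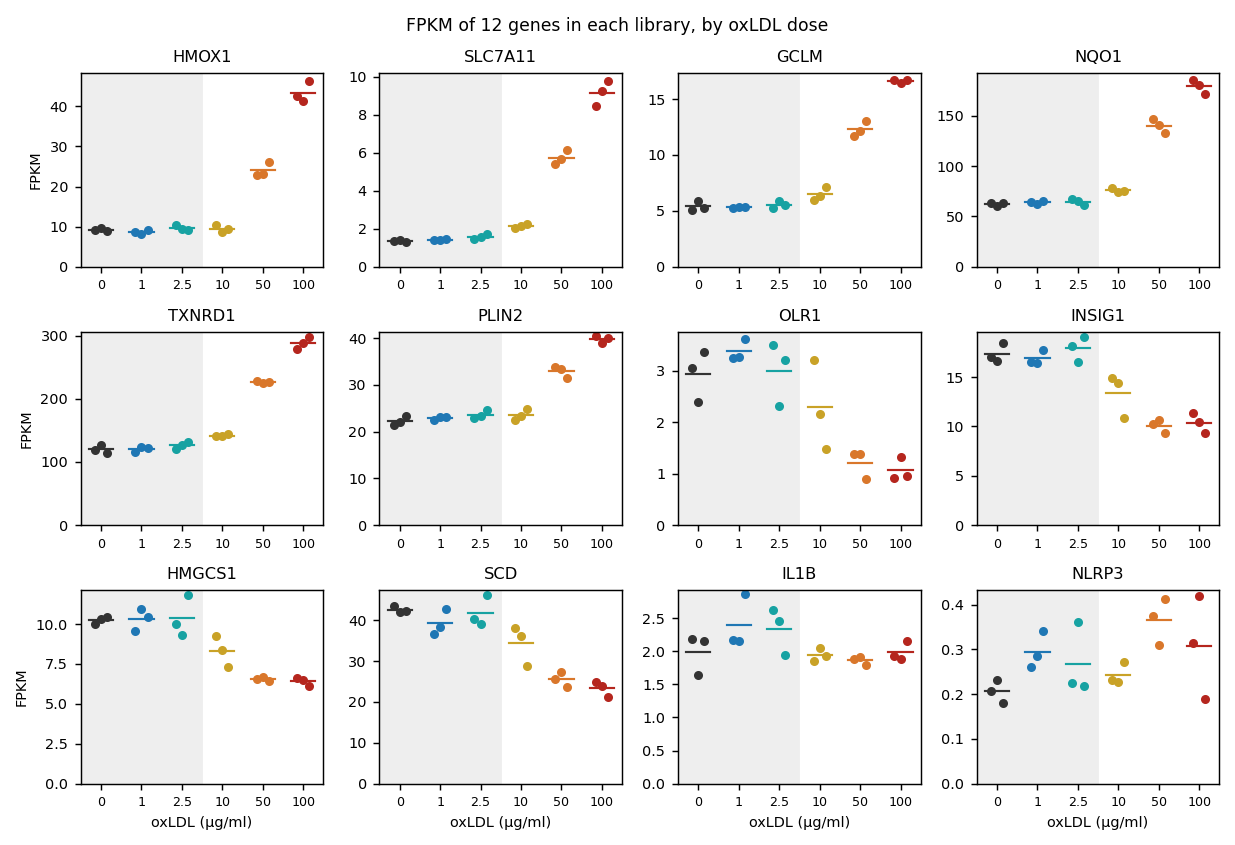
FPKM of 12 genes (vertical axes, from 0) in each of the 18 libraries by oxLDL dose, with a line at the mean of the 3 libraries of a dose. In the shaded region, 0 to 2.5 µg/ml, the libraries of the 3 doses lie in 1 band for HMOX1, SLC7A11, GCLM, NQO1, TXNRD1 and PLIN2, whose means at 100 µg/ml were 43.4, 9.15, 16.6, 179.5, 287.9 and 39.8.

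No receptor for lipoprotein was called. Of 15 tested members of the scavenger and lipoprotein receptor list 0 were called and 0 had an unadjusted p under 0.05, with a median log2 fold change of 0.002. OLR1, the lectin-like oxLDL receptor (chromosome 12, 10158301 to 10176266), had 3.05, 2.40 and 3.36 FPKM at 0, 3.25, 3.26 and 3.62 with 1 µg/ml, and 3.49, 2.31 and 3.21 at 2.5 µg/ml. Its spread within a dose was wide, and the log2 fold change of 0.10 had an interval from -0.16 to 0.36. CD14, a coreceptor of innate immunity, had the smallest p of the list (0.149), with a log2 fold change of -0.12 (SE 0.076), and of -0.075 without replicate 2 at 0 µg/ml. CD36 was not analysed here.

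Lipid storage and fatty acid oxidation genes were also not called. Of 17 tested genes for lipid droplets and fatty acid uptake, 0 were called or had an unadjusted p under 0.05, and their median was 0.011. PLIN2, the droplet coat protein that accumulates with stored lipid (chromosome 9, 19108388 to 19127492), had 21.5, 22.0 and 23.4 FPKM at 0, 22.5, 23.1 and 23.1 with 1 µg/ml, and 23.0, 23.5 and 24.6 at 2.5 µg/ml. Its groups overlapped, and the log2 fold change was 0.061 (-0.019 to 0.14, unadjusted p = 0.122). ANGPTL4, a secreted inhibitor of lipoprotein lipase and a PPAR target, was under the filter, with 2 to 7 reads per library and FPKM of 0.303, 0.231 and 0.149 at 0 and 0.128 to 0.341 (median 0.252) at the low doses. Fitted without the filter, its log2 fold change was 0.037 (-0.17 to 0.24), and at this depth a moderate difference in ANGPTL4 was not detectable. The constant added before the log also makes this value and its interval smaller than on FPKM itself. Among 18 tested PPAR and fatty acid oxidation genes, 0 were called and 12 lay above 0, with a median of 0.012. SLC25A20, the mitochondrial carnitine carrier, had the smallest unadjusted p of that list (0.00841). It had 5.31, 5.35 and 5.89 FPKM at 0, 6.08, 5.93 and 6.42 with 1 µg/ml and 6.60, 5.87 and 6.51 at 2.5 µg/ml, a log2 fold change of 0.16 (SE 0.051, adjusted p = 0.9998 by limma). Only replicate 2 at 2.5 µg/ml lay inside the range at 0.

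Sterol synthesis genes, which SREBP2 drives when cells lack sterol, and fatty acid synthesis genes, which SREBP1 drives, also stayed uncalled. The 23 tested cholesterol synthesis genes had a median of -0.010, with 11 above 0 and every 95% interval inside ±0.5. Without replicate 3 at 2.5 µg/ml the cholesterol list had a median of -0.025, with 5 of 23 above 0. In that fit all genes had a median of -0.0027 and 47.6% lay above 0. HMGCS1, which makes HMG-CoA (chromosome 5, 43287470 to 43313412), ran from 10.0 to 10.4 FPKM at 0 and from 9.31 to 11.8 (median 10.2) at the low doses, a log2 fold change of 0.009 (-0.13 to 0.15). INSIG1, the sterol sensor partner that holds SREBP in the endoplasmic reticulum, ran from 16.6 to 18.5 and from 16.5 to 19.1 (0.004, -0.11 to 0.12). The highest value of both came from replicate 3 at 2.5 µg/ml, and without it the log2 fold changes were -0.030 and -0.022. SCD, the fatty acid desaturase, had 43.4, 42.0 and 42.4 at 0, 36.8, 38.4 and 42.7 with 1 µg/ml, and 40.4, 39.1 and 46.2 at 2.5 µg/ml. The groups overlapped, and the log2 fold change of -0.073 had an interval from -0.20 to 0.056. SCD also had its highest value in replicate 3 at 2.5 µg/ml. Without that library its log2 fold change was -0.11 (SE 0.042, adjusted p = 0.9998 by limma). Among the 17 SREBP1 list genes and the 15 LXR list genes 0 were called, with medians of 0.001 and -0.001. ABCA1, which exports cholesterol to apolipoproteins, ran from 0.513 to 0.630 FPKM at 0 and from 0.550 to 0.676 (median 0.631) at the low doses (0.076, -0.071 to 0.22). APOC1 had the smallest p of the LXR list (0.0687), with a log2 fold change of 0.22 (SE 0.11) that was larger at 1 µg/ml (mean FPKM 2.86) than at 2.5 µg/ml (2.27), against 2.13 at 0.

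Inflammasome and IL-1 genes, the readout named in the series title, had 12 tested members, of which 0 were called, 0 had an unadjusted p under 0.05 and 9 lay above 0 (median 0.025). IL1B (chromosome 2, 112829751 to 112836779) had 2.19, 1.65 and 2.15 FPKM at 0, 2.17, 2.16 and 2.87 with 1 µg/ml, and 2.63, 2.46 and 1.95 at 2.5 µg/ml. The 3 highest values were all at a low dose, the other 3 low-dose values lay within the range at 0, and the log2 fold change was 0.20 (SE 0.11, interval -0.029 to 0.43, unadjusted p = 0.0813). Without replicate 2 at 0 µg/ml, which held the lowest IL1B value, it was 0.096 (SE 0.11). GSDME, a gasdermin that forms membrane pores when cleaved, had the smallest p of the list (0.0629) and lay on the other side of 0. It had 5.27, 4.99 and 4.58 FPKM at 0, 4.62, 4.48 and 4.57 with 1 µg/ml, and 4.84, 4.42 and 4.50 at 2.5 µg/ml. The GSDME groups overlapped, with a log2 fold change of -0.10 (SE 0.050), and of -0.059 without replicate 1 at 0 µg/ml. IL18 and CASP1, the other cytokine and the protease of the inflammasome, had log2 fold changes of 0.026 (-0.11 to 0.16) and 0.041 (-0.12 to 0.20). NLRP3, the sensor (chromosome 1, 247416077 to 247448817), was under the filter with 21 to 34 reads per library. Its FPKM was 0.206, 0.231 and 0.181 at 0, 0.260, 0.286 and 0.340 with 1 µg/ml, and 0.225, 0.361 and 0.217 at 2.5 µg/ml. All 3 libraries at 1 µg/ml lay above those at 0 and 2 of the 3 at 2.5 µg/ml did not. Fitted without the filter, the NLRP3 log2 fold change was 0.14 (SE 0.065, interval 0.001 to 0.29, unadjusted p = 0.0489, adjusted p = 0.9999 by limma). PYCARD was not analysed here.

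Cytokine and interferon genes had medians a little above that of all genes. Of 19 tested NF-kB cytokine and chemokine genes, 14 lay above 0 (median 0.030), and 2 had an unadjusted p under 0.05 and 0 were called. CCL2, a monocyte chemoattractant, had 3.41, 3.10 and 3.97 FPKM at 0, 3.88, 4.15 and 3.89 with 1 µg/ml, and 3.73, 3.83 and 4.55 at 2.5 µg/ml (log2 fold change 0.18, SE 0.074). Without replicate 2 at 0 µg/ml, which held the lowest CCL2 value, it was 0.11 (SE 0.079). The mean FPKM of CCL2 was 2.67, 2.57 and 2.74 at 10, 50 and 100 µg/ml, against 3.49 at 0. The other gene of that list with an unadjusted p under 0.05 was RELB, an NF-kB subunit, at 0.21 (SE 0.091). Of 20 interferon response genes, 15 lay above 0 (median 0.035), 2 had an unadjusted p under 0.05 and 0 were called. MX1, an antiviral GTPase (chromosome 21, 41420558 to 41459214), had 0.684, 0.704 and 0.645 FPKM at 0, 0.790, 0.827 and 0.834 with 1 µg/ml, and 0.864, 0.952 and 0.859 at 2.5 µg/ml. Its groups did not overlap, with a log2 fold change of 0.20 (SE 0.061, unadjusted p = 0.00642, adjusted p = 0.9998 by limma). IRF7, an interferon regulatory factor, did not overlap either, at 0.28 (SE 0.11). The mean FPKM of MX1 was 0.624, 0.578 and 0.571 at 10, 50 and 100 µg/ml, against 0.678 at 0. Among all tested genes 52.1% had a log2 fold change above 0, and 1.29% were higher at an unadjusted p under 0.05. For 0.87% all 6 low-dose libraries lay above the 3 at 0. The median of the interferon list was 0.012 with 1 µg/ml and 0.080 at 2.5 µg/ml, against -0.0049 and 0.011 for all genes. Pooled without replicate 1 at 1 µg/ml it was 0.060.

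The stress and growth lists had medians close to that of all genes. Genes of the ATF4 stress response (28 tested), the unfolded protein response (21), lysosome and autophagy (30), heat shock proteins (16), ferroptosis and iron (20), immediate early genes (28), metallothioneins and zinc (9) and hypoxia and glycolysis (29) had medians between -0.006 and 0.016, with 0 called in each. TRIB3, a target of ATF4, was the 1 gene of these lists with an unadjusted p under 0.05, at 0.096 (SE 0.043, unadjusted p = 0.047), and at 0.064 without replicate 1 at 0 µg/ml. The metallothionein and zinc list had a median of -0.005, with 4 of its 9 genes above 0. When replicate 3 at 2.5 µg/ml was left out, that list's median was 0.025, with 7 above 0, where 47.6% of all genes lay above 0. EGR1 (chromosome 5, 138465479 to 138469303), a zinc-finger factor induced early after stimulation, ran from 8.37 to 10.7 FPKM at 0 and from 7.56 to 10.3 (median 9.33) at the low doses, a log2 fold change of -0.061 (-0.27 to 0.14). The 44 tested genes of DNA replication had a median of -0.003 and log2 fold changes from -0.087 to 0.042, and the 40 of mitosis a median of 0.019 and a range from -0.027 to 0.077, among the narrowest of the 25 pathway lists. Without replicate 3 at 2.5 µg/ml these medians were -0.014 and 0.010. In the replication list 2 genes had an unadjusted p under 0.05, both lower at the low doses: CDC45, part of the helicase that unwinds DNA (-0.074, SE 0.034, unadjusted p = 0.0481), and POLE2, a subunit of DNA polymerase epsilon (-0.082, SE 0.037, unadjusted p = 0.0498). In the mitosis list it was 1 gene, on the other side of 0. CDK1, the mitotic kinase, ran from 99.3 to 104.2 FPKM at 0 and from 103.0 to 108.5 at the low doses (0.063, SE 0.027). Of the 32 tested matrix and TGF-beta genes 27 lay above 0, with a median of 0.026, and LOX, the collagen crosslinking oxidase, had the smallest p (0.0253) at 0.083 (SE 0.032). The matrix list's median by library was 0.14 in replicate 3 at 2.5 µg/ml and between -0.017 and 0.057 in the other 5 low-dose libraries. Without that library the matrix list's pooled median was 0.003, with 17 of 32 above 0.

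The p53 list had the highest median of the pathway lists, 0.037 over 27 genes, and 0.016 without replicate 3 at 0 µg/ml. It held 1 gene with an unadjusted p under 0.05, BBC3, which encodes the pro-apoptotic BH3-only protein PUMA (chromosome 19, 47220824 to 47232860). BBC3 had 2.21, 2.45 and 1.87 FPKM at 0, 2.88, 2.70 and 2.68 with 1 µg/ml, and 2.81, 2.72 and 2.70 at 2.5 µg/ml. The 6 low-dose values were tightly grouped above the 3 at 0, which were spread out. The log2 fold change was 0.28 (SE 0.065, interval 0.14 to 0.43, unadjusted p = 0.00101, adjusted p = 0.9998 by limma). The mean FPKM of BBC3 was 2.39, 2.13 and 2.43 at 10, 50 and 100 µg/ml.

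Mitochondrial and ribosomal lists had low medians, and the library that stood apart moved with them. All 13 mitochondrially encoded transcripts had a log2 fold change below 0, from -0.14 for ND6 to -0.009 for ATP6, with a median of -0.066. Without replicate 3 at 2.5 µg/ml the median was -0.048, with 1 of the 13 above 0. Transcripts of the mitochondrial genome are cut from shared precursors, so these 13 values are not independent. ND5, a complex I subunit, had 1111, 1052 and 1083 FPKM at 0 and 938.2 to 1112 (median 977.9) at the low doses, a log2 fold change of -0.12 (SE 0.052, unadjusted p = 0.0463), and of -0.13 (SE 0.050) without that library. The list's median was -0.20 in replicate 3 at 2.5 µg/ml, -0.085 and -0.088 in the other 2 libraries at 2.5 µg/ml, and 0.068, -0.077 and -0.012 with 1 µg/ml. The 3 libraries at 0 were at 0.036, -0.087 and 0.076, as wide a span as the low doses without replicate 3 at 2.5 µg/ml. The 68 tested cytosolic ribosomal protein genes had a median of -0.027, with 14 above 0, and their median by library was -0.17 in replicate 3 at 2.5 µg/ml and -0.013 to 0.035 in the other 5 low-dose libraries. Without it the ribosomal list's pooled median was 0.001, with 35 of 68 above 0, where 47.6% of all genes lay above 0. RPS29 had the smallest p of the ribosomal list (0.0338) at -0.14 (SE 0.057), and was at -0.11 (SE 0.051) without that library. Its annotated span holds RN7SL1, so its reads may belong to either.

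NDUFA1, an accessory subunit of complex I (chromosome X, 119871832 to 119876662), stood below the other nuclear genes of the respiratory chain. It had 164.3, 160.2 and 178.0 FPKM at 0, 142.6, 154.3 and 158.6 with 1 µg/ml, and 140.1, 140.3 and 130.5 at 2.5 µg/ml. Its groups did not overlap, with a log2 fold change of -0.21 (SE 0.057, interval -0.34 to -0.090, unadjusted p = 0.00289) and -0.19 without the library that stood apart. The list of 34 genes had a median of -0.019 and 12 above 0. Without that library it had a median of 0.002 and 19 above 0, where 47.6% of all genes lay above 0.

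**Figure D3:**
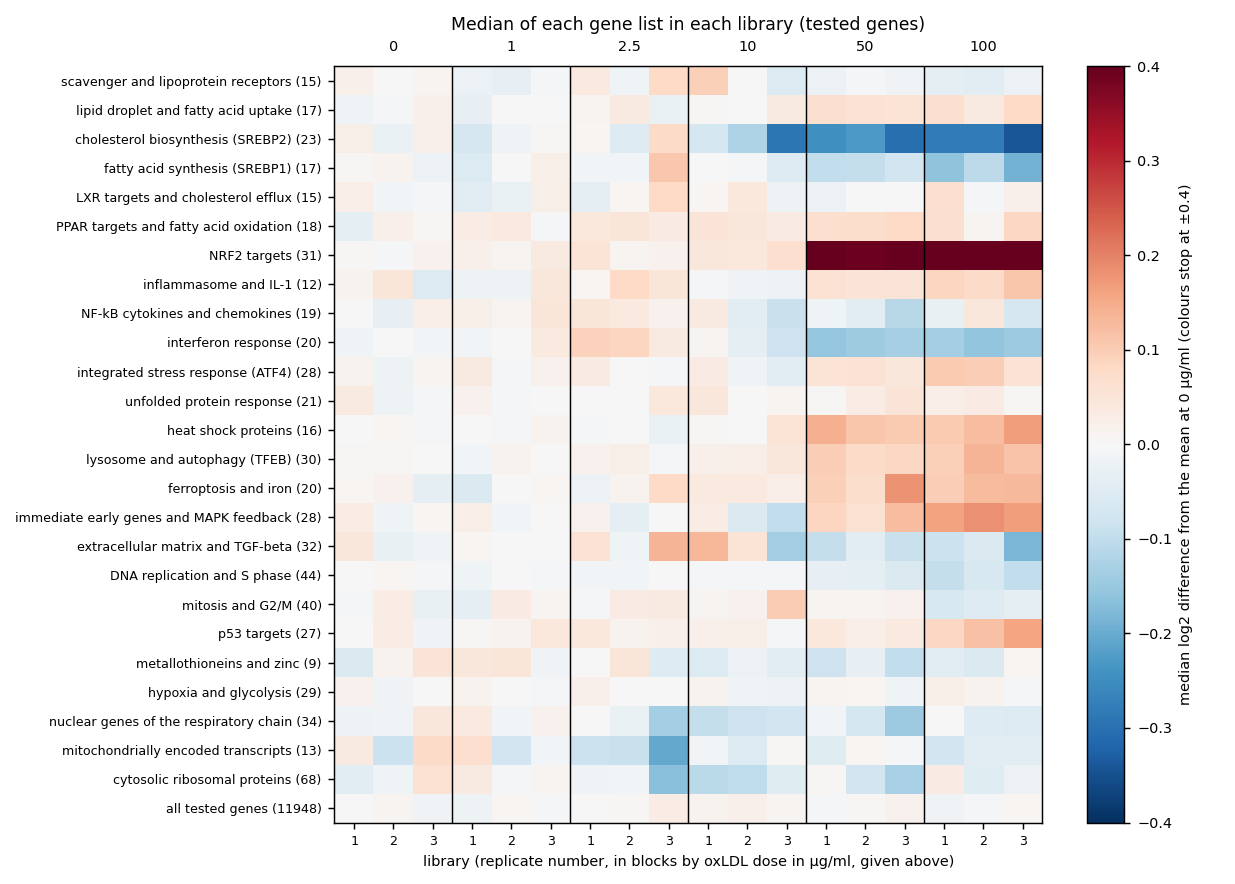
Colours give the median log2 difference from the mean at 0 µg/ml over the tested genes of each pathway list (rows, number of genes in brackets) in each of the 18 libraries (columns, in blocks by dose). At 1 and 2.5 µg/ml the rows are close to 0, apart from replicate 3 at 2.5 µg/ml, where the mitochondrial (-0.20) and ribosomal (-0.17) rows are lowest and the matrix row (0.14) is highest; NRF2 targets and cholesterol synthesis genes take on strong colours from the higher doses.

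No marker of another cell type was called. With 0 called in all 7 marker lists, medians ran from -0.026 for microglia and macrophages to 0.050 for neurons, where only SNAP25 and TUBB3 were tested. TUBB3, a tubulin that many cultured lines express, had 32.2, 30.6 and 31.9 FPKM at 0 and 32.4 to 36.0 (median 33.8) at the low doses, without overlap (0.10, SE 0.038, unadjusted p = 0.0217). The summed FPKM of pericyte and fibroblast markers, which was the highest of the 7 lists, was 1488 to 1578 at 0 and 1510 to 1612 at the low doses. That of endothelial markers was 1.27 to 1.49 and 1.16 to 1.64. Such a sum is set by the most abundant members, so the order of the lists does not give cell identity. Of the 16 pericyte and fibroblast markers 9 were tested. RGS5 was under the filter, and ANPEP, COL3A1, DCN, DES, LUM and PDGFRA were not analysed here.

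The genes with the smallest unadjusted p among those with separate groups are given as leading genes, none of them called; all have an adjusted p of 0.9998. The lowest unadjusted p of all was that of H2AC8, a replication-dependent histone H2A gene (chromosome 6, 26216921 to 26217437). It had 3.58, 3.01 and 2.98 FPKM at 0, 2.49, 2.38 and 2.40 with 1 µg/ml, and 2.34, 2.15 and 2.27 at 2.5 µg/ml. The log2 fold change was -0.38 (SE 0.063, interval -0.51 to -0.24, unadjusted p = 8.42e-05), on 18 to 43 reads per library. Transcripts of such histone genes mostly lack a poly-A tail and are captured only in part by poly-A selection.

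Among the higher leading genes, NME2, a nucleoside diphosphate kinase (chromosome 17, 51165536 to 51171744), had 3.34, 3.39 and 3.50 FPKM at 0, 4.05, 3.86 and 4.25 with 1 µg/ml, and 4.44, 4.86 and 4.57 at 2.5 µg/ml. The 3 doses were in order without overlap, and the log2 fold change was 0.30 (SE 0.064, interval 0.17 to 0.44). At 10, 50 and 100 µg/ml its mean FPKM was 3.77, 4.06 and 3.62. NME2 lies within the NME1-NME2 readthrough gene, so reads may have been divided between them. CEBPD, a transcription factor of acute inflammation and fat cell differentiation, had 1.48, 1.36 and 1.57 FPKM at 0, 1.86, 1.85 and 2.10 with 1 µg/ml, and 2.48, 1.87 and 1.83 at 2.5 µg/ml, a log2 fold change of 0.34 (SE 0.083). Its mean was 2.06, 2.31 and 2.21 at 10, 50 and 100 µg/ml, all above the highest value at 0. The other higher leading genes were EVI5L (0.19), a protein with a Rab GTPase-activating domain, the pseudogene PLEKHA8P1 (0.33), the antisense transcript FOXN3-AS1 (0.24), the small nucleolar RNA SNORA32 (0.22), and the mitochondrial transfer RNA TRNE (0.83, SE 0.21, on 8 to 22 reads). Without replicate 2 at 0 µg/ml, which held its lowest value, TRNE was at 0.46 (SE 0.11).

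Among the lower leading genes, SNHG19, a small nucleolar RNA host transcript (chromosome 16, 2154782 to 2155358), had 54.1, 64.4 and 56.5 FPKM at 0, 49.5, 49.0 and 48.4 with 1 µg/ml, and 43.0, 48.6 and 39.4 at 2.5 µg/ml. Its log2 fold change was -0.33 (SE 0.076), and -0.28 without replicate 3 at 2.5 µg/ml, which held the lowest value. CGRRF1, a RING finger protein (chromosome 14, 54509906 to 54539292), had the smallest log2 fold change and the smallest SE of the 16: 8.35, 8.11 and 8.13 at 0, 7.05, 7.47 and 7.14 with 1 µg/ml, and 7.07, 6.95 and 7.64 at 2.5 µg/ml (-0.17, SE 0.040). PSCA, a glycolipid-anchored surface antigen, ran from 5.96 to 6.29 FPKM at 0 and from 4.56 to 5.60 (median 5.17) at the low doses (-0.25, SE 0.062). ARF4-AS1, an antisense transcript that overlaps PDE12, had the largest value of the 16 in this direction, -0.70 (SE 0.14), on 3 to 18 reads. It had 1.15, 1.22 and 0.915 FPKM at 0, and 0.338 to 0.855 (median 0.448) at the low doses, where the highest was replicate 3 at 2.5 µg/ml. Without that library ARF4-AS1 was at -0.79 (SE 0.095, adjusted p = 0.0683 by limma), the lowest adjusted p of that fit. The remaining ones were SNORD78 (-0.51), a small nucleolar RNA inside GAS5, the spliceosomal RNA gene RNU6-8 (-0.51) and L1CAM-AS1 (-0.30), which lies opposite L1CAM. The kit does not mark strand and the counting rule for strand is not given in the sources used here, so reads of an antisense gene and its partner cannot be told apart.

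**Figure D4:**
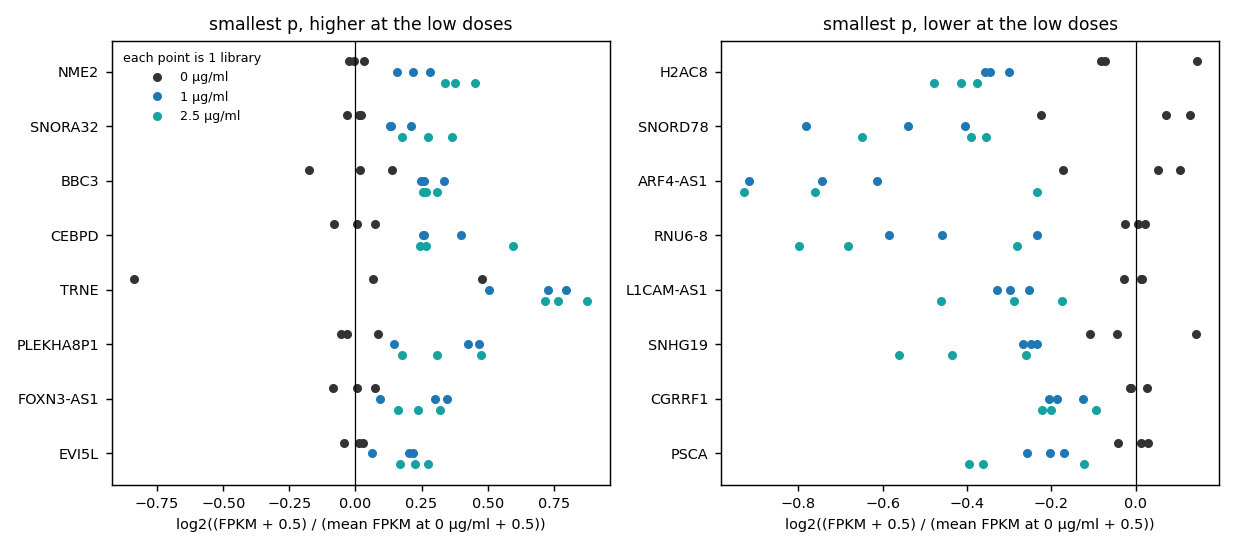
For the 8 leading genes in each direction, each point is 1 library's log2 ratio of FPKM + 0.5 to the mean at 0 µg/ml + 0.5, coloured by dose. The 6 low-dose points of each gene lie on 1 side of the 3 points at 0, as the rule of choice requires; TRNE, with 8 to 22 reads, has the widest spread at 0.

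Each low dose was also compared alone, with 1 mean per dose over the same 9 libraries. At 1 µg/ml against 0, limma called 0 genes (0%; lowest adjusted p 0.9641), with 367 (3.07%) at an unadjusted p under 0.05, 1.28% of all tested genes higher and 1.79% lower. At 2.5 µg/ml against 0 it called 0 (0%; lowest adjusted p 0.1292), with 488 (4.08%), 2.12% higher and 1.97% lower. Between 2.5 and 1 µg/ml it called 0 (0%; lowest adjusted p 0.3291), with 640 (5.36%), 3.04% higher and 2.32% lower, the most of these comparisons; it involves no untreated library. The 95% interval reached a median of 0.14 to either side in each of these comparisons and 0.12 in the pooled one. The comparisons with 0 share the 3 untreated libraries. Leaving out 1 library moved the count at an unadjusted p under 0.05 most between 2.5 and 1 µg/ml, from 439 without replicate 1 at 1 µg/ml to 1093 without replicate 1 at 2.5 µg/ml. Without that last library limma called MIR3682, a microRNA gene, at 2.5 µg/ml against 0 (-0.88, adjusted p = 0.00706). When replicate 2 at 1 µg/ml was left out it called the unnamed locus LOC124901207 at 2.5 against 1 µg/ml (1.14, adjusted p = 0.0317).

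The smallest p at 2.5 µg/ml belonged to C12orf75-AS1, an antisense transcript, with 1.15, 1.35 and 1.37 FPKM at 0, 1.35, 1.64 and 1.54 with 1 µg/ml, and 2.12, 2.14 and 2.13 at 2.5 µg/ml, on 13 to 25 reads. Its log2 fold change was 0.56 (SE 0.076, adjusted p = 0.1292 by limma). Its mean was 2.13 FPKM at 2.5 µg/ml, and 2.02, 1.86 and 2.52 at 10, 50 and 100 µg/ml. MIR503HG, the host transcript of miR-503 (chromosome X, 134543377 to 134546630), had 20.3, 19.4 and 18.4 FPKM at 0, 17.6, 17.6 and 16.9 with 1 µg/ml, and 15.6, 14.7 and 16.8 at 2.5 µg/ml. Its log2 fold change at the higher of these doses was -0.30 (SE 0.053, adjusted p = 0.3093 by limma), and in the pooled comparison one of -0.23 (SE 0.057, unadjusted p = 0.00195). All 6 low-dose libraries lay below the 3 at 0, and the means were 16.7, 10.1 and 8.48 FPKM at 10, 50 and 100 µg/ml. At 1 µg/ml the genes with the smallest p were SNORA71B (log2 fold change -0.59, SE 0.11) and SNORD78 (-0.57), lower, and IMPA2, an inositol monophosphatase (0.55), and PSMD10, a proteasome assembly chaperone (0.17), higher.

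Between the 2 low doses SNORA71B and IMPA2 led again. SNORA71B, a small nucleolar RNA within SNHG17 (chromosome 20, 38425195 to 38425330), had 7.15, 6.81 and 6.85 FPKM at 0, 4.37, 4.52 and 4.38 with 1 µg/ml, and 6.41, 6.81 and 9.30 at 2.5 µg/ml, on 12 to 27 reads. The libraries at 1 µg/ml were lower than those on both sides of them. Without replicate 3 at 2.5 µg/ml, which held the highest value, SNORA71B alone was called at 1 µg/ml against 0 (-0.59, SE 0.046 against 0.11 with that library, adjusted p = 0.00238 by limma) and at 2.5 against 1 µg/ml (0.53, SE 0.052, adjusted p = 0.0189). IMPA2 had 0.857, 0.870 and 0.926 FPKM at 0, 1.46, 1.64 and 1.49 with 1 µg/ml, and 1.17, 0.906 and 0.715 at 2.5 µg/ml, with the 3 libraries at 1 µg/ml above the other 6 (2.5 minus 1: -0.51, SE 0.11, adjusted p = 0.7297 by limma). SNORD77 (0.76) and EBPL, a sterol isomerase-like protein (-0.18), were the other 2 with the smallest p between 2.5 and 1 µg/ml.

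Genes that differed between high doses were then read at the low doses. The comparison of 100 with 10 µg/ml uses none of the 9 low-dose or untreated libraries, and it called 1395 of 11964 genes (11.7%), 682 higher (5.7%) and 713 lower (5.96%). With 1 library left out the count was 706 or 500 without replicate 1 or 2 at 10 µg/ml, 698, 891 or 824 without replicate 1, 2 or 3 at 100 µg/ml, and 1616 without replicate 3 at 10 µg/ml. Of the 682 higher genes, 670 were tested at the low doses, where their median log2 fold change was -0.001 and 48.8% lay above 0. Of the 713 lower genes all were tested, with a median of 0.002 and 52.7% above 0. Over the 11850 genes tested in both comparisons the median was 0.002 and 52.1% lay above 0. The lower and upper quartiles were -0.030 and 0.024 for the higher set and -0.024 and 0.031 for the lower set, against -0.029 and 0.033 for all genes. Without replicate 3 at 2.5 µg/ml the shares above 0 were 54.6% for the higher set, 37.9% for the lower set and 47.6% for all genes, with medians of 0.007, -0.014 and -0.003. With all 9 libraries, the medians at 1 µg/ml against 0 were 0.005 for the higher set, -0.016 for the lower set and -0.005 for all genes. At 2.5 µg/ml against 0 they were -0.006, 0.024 and 0.011.

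Single named genes with large high-dose differences were also read at the low doses. HMOX1, with a log2 fold change of 2.14 from 10 to 100 µg/ml, was at -0.012 at the low doses. SLC7A11 was at 1.87 and 0.10, OSGIN1 at 1.46 and 0.16, GCLM at 1.30 and 0.014, NQO1 at 1.24 and 0.048, and TXNRD1 at 1.02 and 0.045. OLR1 and MIR503HG were at -0.80 and -0.94 from 10 to 100 µg/ml and at 0.10 and -0.23 at the low doses. OSGIN1 and MIR503HG were named for their small low-dose p, so their low-dose values are not independent of that choice.

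**Figure D5:**
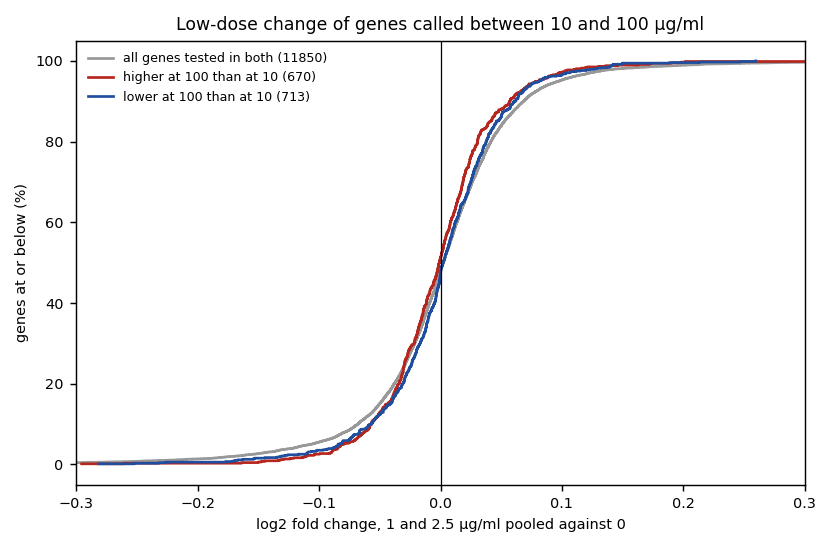
The curves give the share of genes (%) at or below each log2 fold change of the pooled low doses against 0, for the 670 genes higher and the 713 lower at 100 than at 10 µg/ml and for all 11850 genes tested in both comparisons. The 3 curves cross 0 close together, with 48.8%, 52.7% and 52.1% of genes above 0.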

How the data were processed

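Poly-A RNA of HMC3 cells was sequenced as paired ends on a NovaSeq after TRIzol extraction and NEBNext Ultra library preparation, per the labels' protocols. The authors deposited FPKM for each library. Named in the submitters' processing notes are hg38, featureCounts, DESeq2 and HISAT2 2.0.5. The annotation and the strand setting are not given in the sources used here. For all 13992 genes, the FPKM of the 9 libraries were whole multiples of 1 step (100%, tolerance 0.05 reads), which gave whole reads. The absolute depth is approximate, since the lengths it rests on equalled those of the GENCODE annotation for 37.0% of 276 single-exon genes. No molecular identifiers are named, so reads may repeat a molecule.

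A gene was tested when 3 or more of the 9 libraries had an FPKM of 0.5 or more (11948 genes), and 2044 fell under this filter. Values were log2(FPKM + 0.5), with library totals as deposited. Limma 3.58.1 (R 4.3.3, eBayes with trend) compared the 6 low-dose libraries with the 3 at 0, and then 1 mean per dose. Tests were two-sided, with Benjamini-Hochberg adjustment over all tested genes and calls at an adjusted p under 0.05. The same fit over 10, 50 and 100 µg/ml gave 100 against 10. The fit was tested on simulated data. Positions and overlaps are from RefSeq's hg38 annotation.

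The comparison, the 32 gene lists and 20 genes fixed by name were chosen with earlier results of these data known. With no calls, leading genes are the 8 in each direction with the smallest unadjusted p, a mean FPKM of at least 1 in either group and groups that do not overlap, and the 2 in each direction for the single doses, without clone names and unnamed loci. From each list the member with the smallest p could be named; 1 of the fixed genes is not reported here. TRIM16, RELB, IRF7, POLE2, FTH1, C1QTNF12, IER3_4, ND6, ATP6, MIR3682 and LOC124901207 were named after their values were seen. Alternatives were other pseudocounts, filters, scaling, limma-voom, no trend, a replicate block, all 18 libraries, 1 mean per dose, and leaving out each library.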

Additional observations from a re-analysis of the deposited data

Results flagged for a closer look

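In groups of 6 low-dose libraries, the lowest or highest value was compared with its nearest neighbour, as a share of the group's range; 106 groups were examined and 4 exceeded the limit for 6 samples, where chance alone flags about 1 in 20 groups. The share of FPKM taken by cytosolic ribosomal protein genes was lowest, at 14.3%, in replicate 3 at 2.5 µg/ml, and the median of the ribosomal list was also lowest there, at -0.167. OLR1 was lowest, at 2.31 FPKM, in replicate 2 at 2.5 µg/ml. The median of the PPAR and fatty acid oxidation list was lowest, at -0.0038, in replicate 3 at 1 µg/ml.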

How the results depend on the processing

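The pooled comparison called 0 genes under every alternative run, the omission of each of the 9 libraries included. Leaving out 1 library gave 0 to 1 calls in each single-dose comparison: 1 at 1 against 0 (SNORA71B) and 1 at 2.5 against 1 (SNORA71B) without replicate 3 at 2.5 µg/ml, 1 at 2.5 against 0 (MIR3682) without replicate 1 at 2.5 µg/ml, and 1 at 2.5 against 1 (LOC124901207) without replicate 2 at 1 µg/ml. For 100 against 10 the count ranged from 500 (without replicate 2 at 10 µg/ml) to 1616 when 1 library was left out, and from 1258 to 1712 under the other settings.

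Same-numbered libraries had correlations of -0.338 to 0.248 between their deviations from the dose means. Between libraries with different numbers the correlations were -0.24 to 0.259. With 3 libraries at each dose, these values cannot tell whether the replicate numbers pair the samples. With the replicate block, limma called 0 genes in the pooled comparison (347 at an unadjusted p under 0.05) and 0 in each single-dose comparison. At 1 µg/ml against 0 the lowest adjusted p by limma was 0.05049 with the block, just above the threshold, and 0.9641 without it.

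Of 1349 log2 fold changes of 72 results for named genes under the alternatives, 1329 kept their direction and side of the threshold. Of the others, 18 values of 8 genes reversed, all with log2 fold changes near 0. When 1 library was left out IL18 ranged from -0.007 to 0.059, HMOX1 from -0.049 to 0.021, GCLM from -0.028 to 0.072, HMGCS1 from -0.030 to 0.037, INSIG1 from -0.026 to 0.047, OLR1 from -0.015 to 0.192, EGR1 from -0.159 to 0.008 and TIE1 from -0.106 to 0.016. The cause was not tested. Of 607 list medians under the alternatives, 600 moved by less than the spread between libraries. The other 7 were those of the interferon list (0.035 to 0.060 without replicate 1 at 1 µg/ml), the replication list (-0.003 to -0.012 without replicate 3 at 0 and -0.014 without replicate 3 at 2.5 µg/ml), the p53 list (0.037 to 0.016 without replicate 3 at 0), the hypoxia and glycolysis list (-0.002 to 0.014 without replicate 1 at 0), the disease-associated microglia list (-0.003 to 0.026 without replicate 3 at 2.5 µg/ml) and the astrocyte list (-0.019 to 0.013 with a filter at 1 FPKM). Depth limits genes with few reads, above all short noncoding RNAs, ANGPTL4 and NLRP3.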
